A study of Mus musculus with 6 samples.

Results

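Mitosis genes encode the proteins that take a cell from the end of G2 through chromosome segregation to the cut between daughter cells. The 38 genes described here were taken from a list of G2 and mitosis genes named by their known function, and all 38 were found among the 54446 genes of the deposited mouse liver table by matching gene identifiers to symbols. Cyclin A and cyclin B bind the kinase Cdk1 and start mitosis, a checkpoint at the kinetochores holds the anaphase-promoting complex (APC/C) until the chromosomes are attached, and the APC/C then destroys cyclin B and lets the cell divide. Most hepatocytes of an adult liver are out of the cell cycle, so transcripts of these genes are scarce there, and they are commonly read as a sign of dividing cells after liver injury or during tumour growth.

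The study profiled poly(A) RNA of mouse liver cells at week 0, week 2 and week 7, with 2 libraries per week, under a title that speaks of treatment with or without MET/CAT and an SB transposase. Each library was labelled as a mixed FVB/N and C57BL background, and the first week 0 library gives the second strain as C57BL/6. The number after C57BL/ differs in each of the other 5 labels, so their background beyond this is uncertain. The labels give no age, no delivery route, no promoter and no share of cells that took up the constructs. No library labelled as untreated at week 2 or week 7 was analysed here, so treatment cannot be told apart from time. Nothing in the labels says that the 2 libraries of a week came from separate animals, so the p-values measure the spread between these libraries, which may be technical. In RNA pooled from many cells, more or fewer dividing cells and more or less RNA per dividing cell cannot be told apart.

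Library totals ran from 49353453 to 58434358 deposited counts, and between 68.3% and 69.6% of the low values in a library were multiples of 4 or 1 above such a multiple. Such values make up 2 of every 4 whole numbers, so a large part of this share would arise without any step. About 4 counts were taken as 1 read pair, an assumption that this share does not establish and on which every read-pair number here rests. The 38 genes together received 2446 and 2568 counts at week 0, 5649 and 5126 at week 2, then 5037 and 4780 at week 7. These sums were between 0.00473% and 0.00967% of a library. Only 5 of the genes exceeded 100 counts in every library, and 9 fell under 12 counts, or 3 read pairs, in at least 1 library. All 38 passed the filter on low counts, which kept 15368 genes. The week 2 libraries carried 13236 and 12804 counts of Xist, expressed from the inactive X chromosome of females, and 0 counts of the Y-linked Ddx3y, while weeks 0 and 7 held at most 15 counts of Xist and at least 1897 of Ddx3y. Sex and time therefore cannot be told apart in any comparison with week 2, and the comparison of week 7 with week 0 is the only 1 of the 3 that sets libraries of like sex side by side.

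Many mitosis genes were higher at week 7 than at week 0. The edgeR quasi-likelihood test called 14 of the 38 higher, against 7.58% of all genes tested, and 1 lower, against 6.23%, at an adjusted p under 0.05 over all 15368 genes. The 38 were chosen with earlier results of these data known, so this contrast is not that of a blind choice. The 14 were the cyclins Ccna2 and Ccnb1 and their kinase Cdk1, the proliferation marker Mki67, the APC/C partners Cdc20 and Ube2c, survivin (Birc5), the kinetochore protein Cenpf, the spindle proteins Tpx2, Nusap1 and Hmmr, and the central spindle proteins Prc1, Kif20a and Racgap1. The gene called lower was Spc25, a subunit of the NDC80 kinetochore complex. The other 23 genes were not called. The fitted log2 difference was above 0 for 35 of the 38, with a median of 1.18 (1.12 with Cdc25c, at 0 counts at week 0, set against 3 read pairs per week 0 library) beside 0.0016 over all genes tested. Both week 7 libraries lay above both week 0 libraries for 25 of the 38 genes and below them for 2, where 28.2% and 27.8% of all genes did so. Cdc25c is among the 35 and the 25. With 0 counts in both week 0 libraries it could pass the filter only through later libraries, so its place there carries no weight. Summed over the 38, the level was 49.0 and 53.2 CPM (counts scaled to the library total and by TMM) at week 0, 94.2 and 86.5 at week 2, then 93.3 and 93.5 at week 7.

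**Figure D1:**
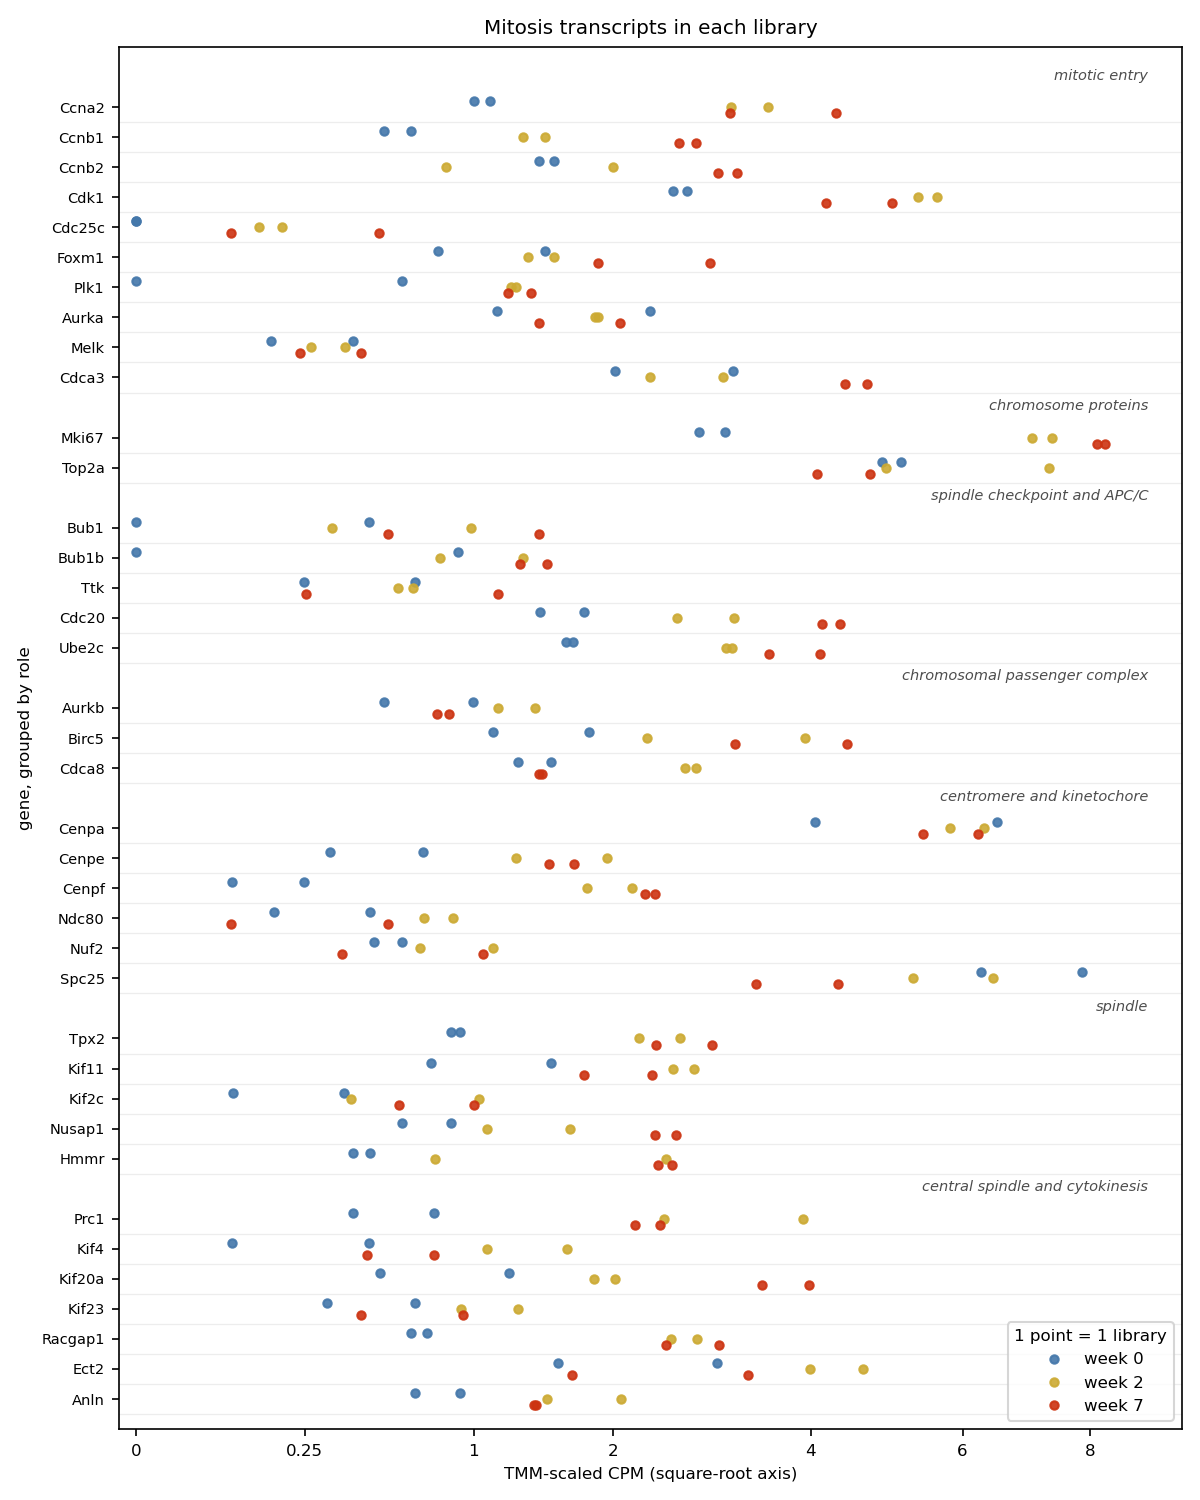
TMM-scaled CPM (horizontal, square-root axis) of the 38 mitosis genes, grouped by role, in each library of weeks 0, 2 and 7. Each point is 1 library; Mki67 sits at 2.78 and 3.05 at week 0 and at 8.11 and 8.25 at week 7, while Spc25 goes from 6.27 and 7.86 to 3.37 and 4.32.

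Promoters are shown here because genes of this group are known to share a pair of elements. The CCAAT box is bound by NF-Y. The cell cycle homology region (CHR) is the element through which MuvB complexes, DREAM in resting cells and B-Myb or FoxM1 forms in G2, act on late cell cycle genes. RefSeq promoters of build GRCm38.p6, running from 250 bases before to 50 bases after the start, were matched for 32 of the 38 genes. Ccna2, Cdc25c, Foxm1, Aurkb, Tpx2 and Kif20a had no entry. The search covered CCAAT and, for the CHR, TTTGAA or TTCGAA, on both strands, and a match of each can share at most 1 letter with a match of the other. CCAAT was present in 25 of the 32 promoters (78.1%), against 42.7% of 11099 tested genes with an entry. A CHR match was present in 26 (81.2%), against 16.9%, and both in 23 (71.9%), against 6.88%. Among genes called higher at week 7 with an entry, 8 of 11 held a CHR match, and among genes not called, 17 of 20 did. A match describes the letters and shows no binding.

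The windows below are the 120 bases before the start, with CCAAT and CHR matches of either strand in capitals. Cdk1 (chr10:69352913-69353032, minus strand), Cdc20 (chr4:118437344-118437463, minus), Ube2c (chr2:164769809-164769928, plus) and Prc1 (chr7:80294356-80294475, plus, the downstream of its entries) were called higher at week 7. Kif11 (chr19:37376262-37376381, plus) and Top2a (chr11:99024190-99024309, minus) were not called, and stand here because they hold the same letters.
Cdk1: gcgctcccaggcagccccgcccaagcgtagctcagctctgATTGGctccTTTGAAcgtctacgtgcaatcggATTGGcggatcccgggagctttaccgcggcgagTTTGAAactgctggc
Cdc20: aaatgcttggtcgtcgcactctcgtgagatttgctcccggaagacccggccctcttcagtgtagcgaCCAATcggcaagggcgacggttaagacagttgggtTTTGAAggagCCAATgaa
Ube2c: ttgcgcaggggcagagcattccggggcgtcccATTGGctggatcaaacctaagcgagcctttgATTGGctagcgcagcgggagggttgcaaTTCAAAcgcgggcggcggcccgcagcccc
Prc1: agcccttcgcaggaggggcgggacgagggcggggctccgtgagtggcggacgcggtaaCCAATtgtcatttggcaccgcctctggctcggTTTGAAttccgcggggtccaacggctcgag
Kif11: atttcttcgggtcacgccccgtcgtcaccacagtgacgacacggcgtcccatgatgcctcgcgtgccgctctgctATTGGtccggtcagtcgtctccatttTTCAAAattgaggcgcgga
Top2a: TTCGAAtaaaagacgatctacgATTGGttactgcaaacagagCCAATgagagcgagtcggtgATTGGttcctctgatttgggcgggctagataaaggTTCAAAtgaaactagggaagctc

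Mitotic entry genes gave 3 calls higher and 0 lower of 10 at week 7 against week 0, beside 7.58% and 6.23% of all genes tested. The counts of the other roles below are to be set beside the same shares, which 1 call in a short list exceeds. Ccna2 (ENSMUSG00000027715), cyclin A2, which acts in S phase and G2, measured 1.00 and 1.10 CPM at week 0, 3.50 and 3.11 at week 2, then 3.09 and 4.30 at week 7. Both later weeks lay above week 0 with no overlap. The ratio of mean CPM was 3.52 at week 7 (log2 difference 1.81 ± 0.29 SE, edgeR adjusted p = 0.00396) and 3.15 at week 2 (edgeR adjusted p = 0.00428). Ccnb1 (ENSMUSG00000041431), cyclin B1, the main partner of Cdk1 in mitosis, measured 0.541 and 0.663 CPM at week 0, 1.47 and 1.32 at week 2, then 2.59 and 2.76 at week 7. Its libraries stood in 3 separate steps by week. Ccnb1 was 4.44-fold higher at week 7 (log2 2.15 ± 0.37 SE, edgeR adjusted p = 0.00552), and its 2.31-fold difference at week 2 missed the threshold (edgeR adjusted p = 0.0504). Cdk1 (ENSMUSG00000019942), the kinase that drives entry into mitosis, measured 2.66 and 2.53 CPM at week 0, 5.64 and 5.37 at week 2, then 5.02 and 4.19 at week 7. Week 0 was lowest with no overlap. Cdk1 was 1.77-fold higher at week 7 (log2 0.83 ± 0.21 SE, edgeR adjusted p = 0.0345) and 2.12-fold higher at week 2 (edgeR adjusted p = 0.00778).

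The remaining entry genes were not called. Foxm1, the transcription factor that switches on many G2 genes, measured 0.801 and 1.47 CPM at week 0, 1.35 and 1.54 at week 2, then 2.89 and 1.88 at week 7. Its week 7 libraries were above week 0 while its week 2 libraries overlapped week 0, and neither difference was called (edgeR adjusted p = 0.139 and 0.648). Plk1, a kinase of mitotic entry and spindle assembly, measured 0 and 0.622 CPM at week 0, 1.27 and 1.23 at week 2, then 1.37 and 1.21 at week 7. All later libraries were above week 0, but the spread between the week 0 libraries left an SE of 1.27 on a log2 difference of 2.05 at week 7 (edgeR adjusted p = 0.376). Ccnb2, the second cyclin B, measured 1.42 and 1.53 CPM at week 0, 2.00 and 0.844 at week 2, then 3.17 and 2.97 at week 7 (edgeR adjusted p = 0.14 at week 7). Cdca3, which helps degrade the Cdk1 inhibitor Wee1, measured 3.13 and 2.01 CPM at week 0 and 4.41 and 4.69 at week 7 (edgeR adjusted p = 0.0966). Cdc25c, a phosphatase that activates Cdk1, had 0 counts in each library of week 0, with 8 and 11 counts at week 2 and then 28 and 4 at week 7. It was not called (edgeR adjusted p = 0.118 at week 7), and no fold is given, since a count of 0 allows up to 3.69 read pairs (exact 95% Poisson limit, counting error only) and week 7 replicate 2 lay under that. Aurka, the kinase of the centrosomes, had a log2 difference of 0.01 ± 0.42 SE, and Melk, a kinase whose level follows the cell cycle, lay between 0.16 and 0.445 CPM in all 6 libraries.

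The chromosome proteins Mki67 and Top2a, both used as markers of proliferation, gave 1 call higher and 0 lower of 2 at week 7. Mki67 (ENSMUSG00000031004), which coats mitotic chromosomes, measured 2.78 and 3.05 CPM at week 0, 7.05 and 7.38 at week 2, then 8.11 and 8.25 at week 7. Each week was separate from the next, and libraries within a week lay close together. The week 7 level was 2.81 times that of week 0 (log2 1.49 ± 0.18 SE, edgeR adjusted p = 0.000857) and the week 2 level 2.47 times (edgeR adjusted p = 0.00106). Mki67 had the smallest adjusted p of the 38 in both comparisons. Its 139 counts in week 0 replicate 1 equal about 34.8 read pairs, with an exact 95% Poisson interval of 24.2 to 48.4 pairs that covers counting error only. Top2a, the topoisomerase that untangles sister chromosomes, measured 4.89 and 5.14 CPM at week 0, 7.32 and 4.95 at week 2, then 4.08 and 4.73 at week 7. Its week 7 libraries lay below week 0, and its week 2 libraries overlapped it. The log2 difference was -0.19 ± 0.24 SE at week 7 (edgeR adjusted p = 0.688) and 0.29 ± 0.23 SE at week 2 (edgeR adjusted p = 0.459).

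**Figure D2:**
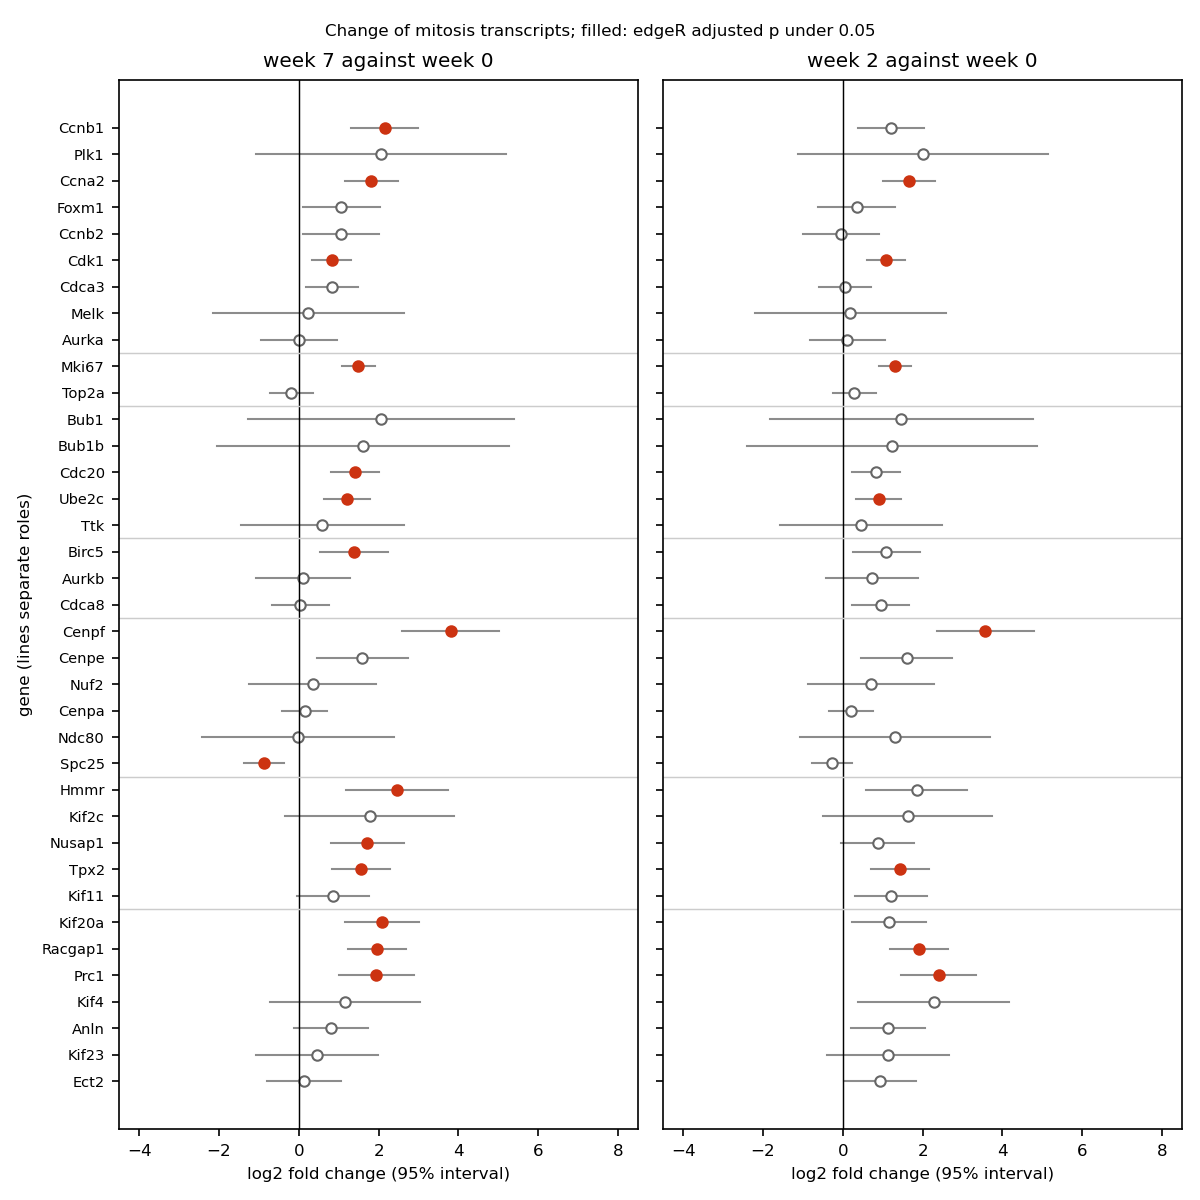
Fitted log2 difference (horizontal axis, with its 95% interval) of mitosis genes at week 7 and week 2 against week 0, with called genes filled. Cenpf lies at 3.81 and 3.57, Spc25 at -0.88 and -0.27, and Cdc25c, with 0 counts at week 0, is not drawn.

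Of the 5 genes of the spindle checkpoint and APC/C, 2 were called higher at week 7 and 0 lower. Cdc20 (ENSMUSG00000006398), the activator of the APC/C in mitosis, measured 1.76 and 1.43 CPM at week 0, 3.14 and 2.57 at week 2, then 4.35 and 4.13 at week 7. The 3 weeks did not overlap. Cdc20 was 2.66-fold higher at week 7 (log2 1.41 ± 0.26 SE, edgeR adjusted p = 0.00845) and 1.79-fold at week 2, where it was not called (edgeR adjusted p = 0.0574). Ube2c (ENSMUSG00000001403), the ubiquitin-conjugating enzyme of the APC/C, measured 1.62 and 1.68 CPM at week 0, 3.05 and 3.12 at week 2, then 3.52 and 4.11 at week 7. Its weeks did not overlap either, and it was 2.31-fold higher at week 7 (edgeR adjusted p = 0.0133) and 1.87-fold higher at week 2 (edgeR adjusted p = 0.0355). The checkpoint kinases gave no call. Bub1 and Bub1b (BubR1) each had 0 counts in week 0 replicate 1, beside 0.477 and 0.912 CPM in week 0 replicate 2. At week 7 Bub1 measured 0.556 and 1.43 CPM and Bub1b 1.30 and 1.49. Ttk (Mps1), which starts the checkpoint signal, measured 0.681 and 0.249 CPM at week 0 and 1.15 and 0.254 at week 7, with overlap.

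In the chromosomal passenger complex, which corrects chromosome attachment and then moves to the midzone, 1 of 3 genes was called higher at week 7. Birc5 (ENSMUSG00000017716), survivin, measured 1.80 and 1.12 CPM at week 0, 3.94 and 2.30 at week 2, then 4.45 and 3.15 at week 7. Later libraries were all above week 0, with a 2.60-fold difference at week 7 (log2 1.38 ± 0.37 SE, edgeR adjusted p = 0.0416) and an edgeR adjusted p of 0.0768 at week 2. Aurkb, the kinase of the complex, measured 0.541 and 0.995 CPM at week 0, 1.40 and 1.15 at week 2, then 0.797 and 0.861 at week 7. Its week 7 libraries fell between those of week 0, while week 2 lay above both (edgeR adjusted p = 0.931 at week 7 and 0.387 at week 2). Cdca8 (borealin) had the same order of weeks, at 1.28 and 1.51 CPM, 2.75 and 2.65, and 1.44 and 1.43, and was not called in any comparison (edgeR adjusted p = 0.964 at week 7 and 0.0684 at week 2).

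The centromere and kinetochore genes gave 1 call higher and 1 lower of 6. Cenpf (ENSMUSG00000026605), a large protein of the outer kinetochore that accumulates in G2, had 4 and 12 counts at week 0, 107 and 128 at week 2, then 123 and 121 at week 7. Its week 0 libraries hold about 4 read pairs in all, so the ratio is loosely set: 14.2 at week 7 with an exact 95% counting interval of 5.29 to 53.9, and 12.1 at week 2 with an interval of 4.50 to 46.0. The edgeR adjusted p was 0.00198 at week 7 and 0.00171 at week 2. Spc25 (ENSMUSG00000005233) measured 6.27 and 7.86 CPM at week 0, 5.30 and 6.45 at week 2, then 3.37 and 4.32 at week 7. Both week 7 libraries were below all others. Spc25 was 1.84-fold lower at week 7 than at week 0 (log2 -0.88 ± 0.22 SE, edgeR adjusted p = 0.0333), and was not called at week 2 (edgeR adjusted p = 0.474). Its partners Ndc80 and Nuf2 lay between 0.0782 and 1.12 CPM in all libraries and were not called. Cenpa, the centromeric histone H3 variant, ran from 4.04 to 6.51 CPM with overlapping weeks. Cenpe, the kinetochore motor, was 3.02-fold higher at week 7 and missed the threshold (edgeR adjusted p = 0.0728).

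Among the 5 spindle genes, 3 were called higher at week 7 and 0 lower. Tpx2 (ENSMUSG00000027469), which activates Aurka on spindle microtubules, measured 0.922 and 0.871 CPM at week 0, 2.22 and 2.60 at week 2, then 2.37 and 2.91 at week 7. Week 0 was lowest with no overlap, and the difference was 2.95-fold at week 7 (edgeR adjusted p = 0.0132) and 2.69-fold at week 2 (edgeR adjusted p = 0.0145). Nusap1 (ENSMUSG00000027306), a microtubule-bundling protein, measured 0.621 and 0.871 CPM at week 0, 1.65 and 1.08 at week 2, then 2.56 and 2.37 at week 7. It rose 3.30-fold at week 7 (edgeR adjusted p = 0.0235), with an edgeR adjusted p of 0.18 at week 2. Hmmr (ENSMUSG00000020330), a spindle and hyaluronan-binding protein, measured 0.481 and 0.415 CPM at week 0, 0.784 and 2.46 at week 2, then 2.39 and 2.52 at week 7. Its week 2 libraries were far apart, and it was called at week 7 (5.49-fold, edgeR adjusted p = 0.0214) but not at week 2 (3.63-fold, edgeR adjusted p = 0.0501). The motor Kif11 (Eg5), which pushes the spindle poles apart, had an edgeR adjusted p of 0.207 at week 7 and 0.0652 at week 2, and the microtubule depolymerase Kif2c was not called either.

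For the central spindle and cytokinesis, 3 of 7 genes were called higher at week 7 and 0 lower. Prc1 (ENSMUSG00000038943), which crosslinks the antiparallel microtubules of the midzone, measured 0.781 and 0.415 CPM at week 0, 3.90 and 2.45 at week 2, then 2.41 and 2.19 at week 7. Week 0 was lowest and week 2 highest without overlap. Prc1 rose 3.85-fold at week 7 (edgeR adjusted p = 0.0156) and 5.31-fold at week 2 (edgeR adjusted p = 0.00397). Racgap1 (ENSMUSG00000023015), a subunit of centralspindlin, measured 0.741 and 0.663 CPM at week 0, 2.77 and 2.52 at week 2, then 2.98 and 2.46 at week 7. It rose 3.88-fold at week 7 (log2 1.95 ± 0.32 SE, edgeR adjusted p = 0.00445) and 3.76-fold at week 2 (edgeR adjusted p = 0.00334). Kif20a (ENSMUSG00000003779), a motor of the midzone, measured 0.521 and 1.22 CPM at week 0, 2.02 and 1.84 at week 2, then 3.98 and 3.44 at week 7. The weeks did not overlap, and Kif20a was 4.26-fold higher at week 7 (edgeR adjusted p = 0.0107) with an edgeR adjusted p of 0.0886 at week 2. Ect2, which activates RhoA at the cleavage furrow, measured 1.56 and 2.96 CPM at week 0, 3.99 and 4.64 at week 2, then 1.67 and 3.29 at week 7, so that week 2 alone lay above week 0. Kif23, the centralspindlin motor, measured 0.321 and 0.684 CPM at week 0, 1.28 and 0.928 at week 2, then 0.445 and 0.939 at week 7, and was not called. Anillin (Anln), a scaffold of the contractile ring, measured 0.922 and 0.684 CPM at week 0, 2.07 and 1.49 at week 2, then 1.41 and 1.39 at week 7, and was not called either, nor was the X-linked chromokinesin Kif4 (edgeR adjusted p = 0.424 at week 7 and 0.0954 at week 2).

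**Figure D3:**
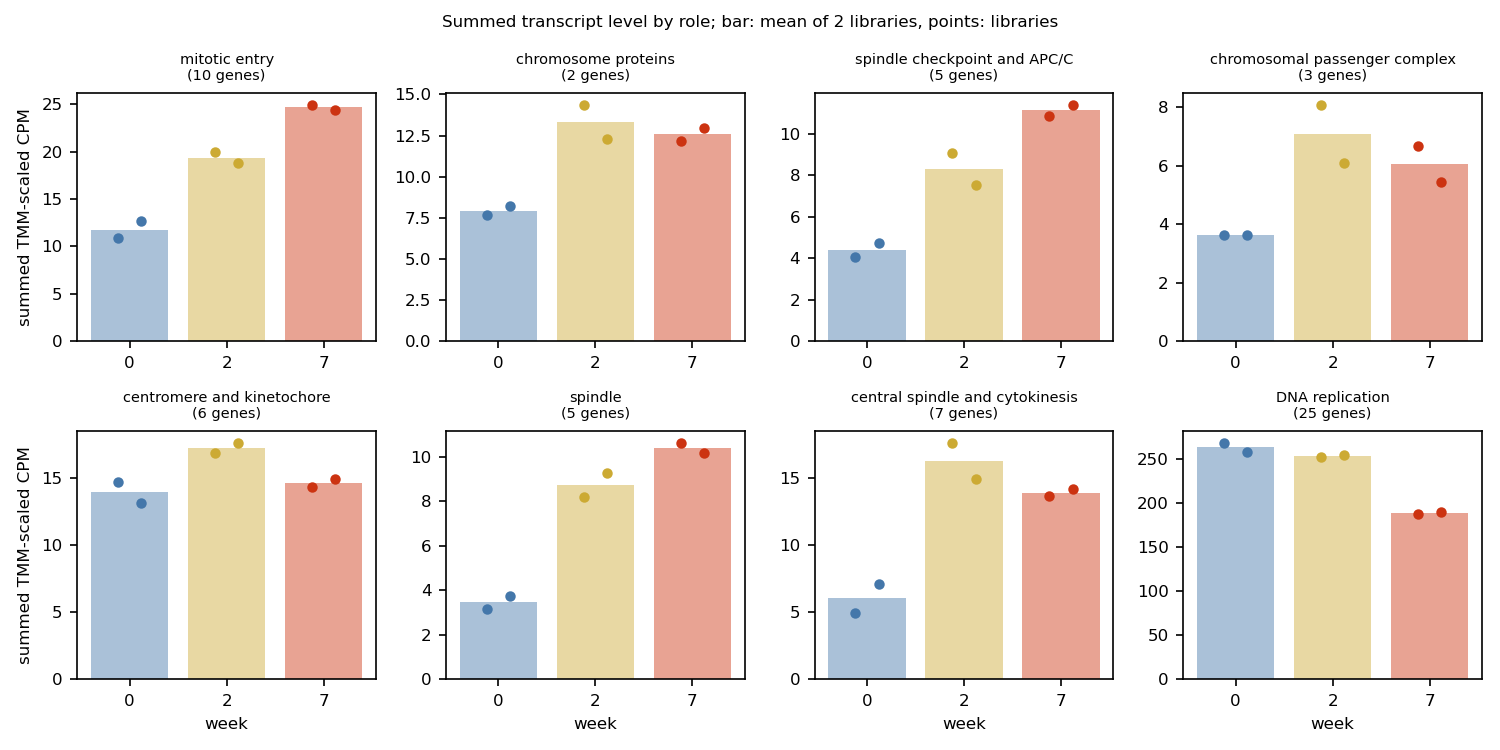
Summed CPM (vertical axis) by week for the genes of each role and for 25 DNA replication genes; points are libraries and bars their mean. Spindle genes sum to 3.17 and 3.75 CPM at week 0 and 10.7 and 10.2 at week 7, while centromere and kinetochore genes sum to 14.7 and 13.1 and to 14.3 and 14.9.

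Summed by role, spindle genes summed to 3.46 ± 0.415 CPM (SD, n = 2) at week 0 and were 3.01-fold higher at week 7. Cytokinesis genes were 2.71-fold higher at week 2. Centromere and kinetochore genes, of which Spc25 and Cenpa hold most counts, had a week 7 sum 1.05 times that of week 0. Scaled by exon length, levels ran from 0 to 2.22 CPM per kb at week 0, with Spc25 highest, followed by Ccnb2 at 0.966. At week 7 they ran from 0.0488 to 2.27 CPM per kb, with Cdc20 highest at 2.27, while Spc25 stood at 1.21.

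Week 2 also differed from week 0. The edgeR test called 8 of the 38 genes higher, against 9.81% of all genes tested, and 0 lower, against 8.81%. They were Ccna2, Cdk1, Mki67, Ube2c, Cenpf, Tpx2, Prc1 and Racgap1, each with its values for both later weeks given above. This comparison and that of week 7 share the week 0 libraries, so a low week 0 value raises both and they are not independent. Both week 2 libraries lay above both week 0 libraries for 27 of the 38 genes and below for 0, where 31.4% and 28.8% of all genes did so. Cdc25c is among the 27, with the same limit from the filter as at week 7. The median log2 difference was 1.14, with or without Cdc25c, beside 0.014 over all genes. Among the 30 genes not called were Ccnb1, Hmmr, Cdc20 and Cenpe, whose edgeR adjusted p values were 0.0504, 0.0501, 0.0574 and 0.0574.

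No mitosis gene was called between week 7 and week 2. The edgeR test called 0 of the 38 higher, against 10.1% of all genes, and 0 lower, against 9.73%. An unadjusted edgeR p under 0.05 was found for 6 of the 38, a smaller share than the 4935 of all 15368 genes. DESeq2 also called 0, with a smallest adjusted p of 0.0526, and limma voom called 2 higher, Ccnb2 and Kif20a. Ccnb1, Cdc20, Birc5, Nusap1, Hmmr and Kif20a passed the threshold against week 0 at week 7 and not at week 2, but their difference between the later weeks was not called. Ccnb1 had a log2 difference of 0.94 ± 0.35 SE between week 7 and week 2 (edgeR adjusted p = 0.0935). Cdca8 had -0.91 ± 0.31 SE (edgeR adjusted p = 0.0755), the smallest of the 38. Both week 7 libraries lay above both week 2 libraries for 10 genes and below for 11, where 30.3% and 30.8% of all genes did so. In the test for any difference over the 3 weeks, 14 of the 38 genes were called, against 26.4% of all genes tested.

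**Figure D4:**
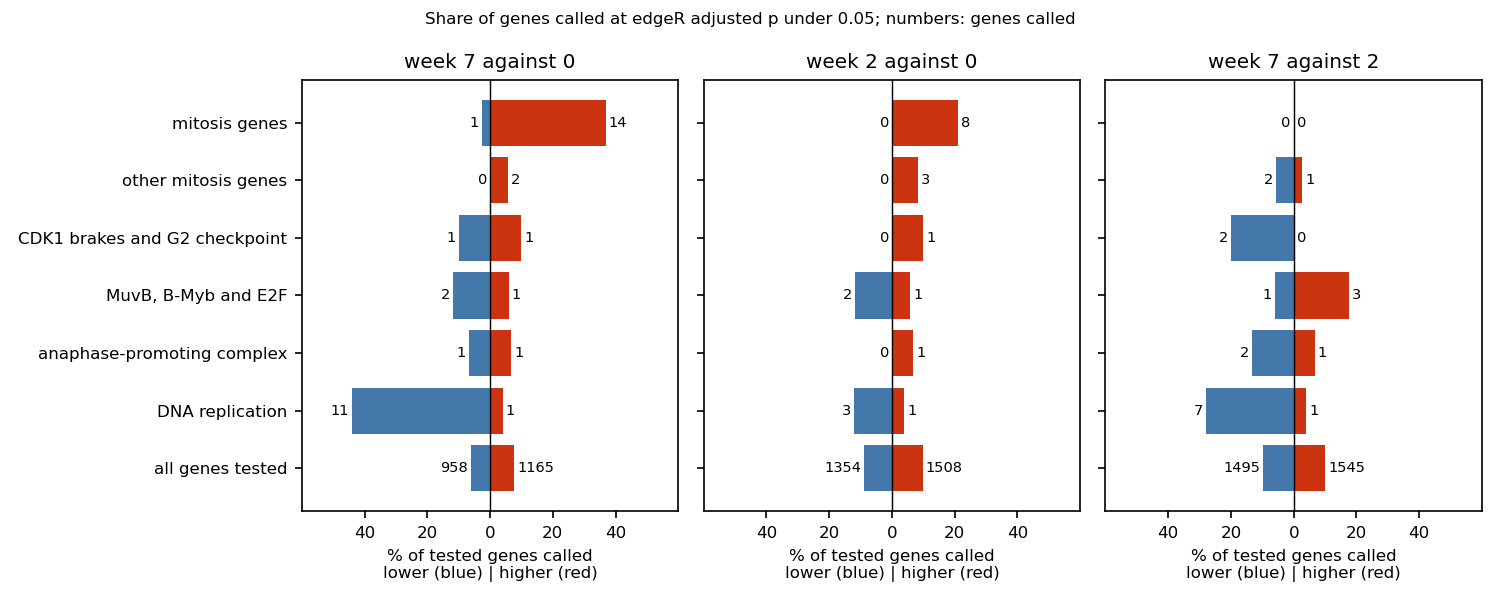
Percent of genes called higher and lower in each comparison of weeks, for the 38 mitosis genes, 5 other lists and all genes tested; numbers at the bars are counts of genes. At week 7 against week 0, 36.8% of the mitosis genes were called higher beside 7.58% of all genes.

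Single libraries bear on the counts. Without week 0 replicate 1, which had 0 counts for Cdc25c, Plk1, Bub1 and Bub1b, 8 genes were called higher at week 7. Without week 0 replicate 2 there were 9, among them Plk1, Bub1 and Bub1b, which the fit of all libraries did not call and which have 0 counts in the remaining week 0 library. Without week 7 replicate 1 or replicate 2 there were 7 each. In these fits the lone library is assumed to vary like the other groups, and the share of all genes called in them is not given here. Ccna2, Ccnb1, Mki67, Cenpf and Racgap1 were called higher at week 7 in each of 16 alternatives of scaling, filter, tool or libraries, and the other 9 lost the call in at least 1. Cdk1 and Spc25 lost their week 7 calls whenever any library was left out, and when only the 4 libraries of weeks 0 and 7 were fitted. Cdk1 also lost its call with limma voom and with a replicate block. At week 2 the genes called in each of the 16 were Ccna2, Mki67, Cenpf, Prc1 and Racgap1.

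Some exons are shared with other genes, and the kit does not mark strand, so reads there could belong to either gene. For Kif20a, 29.3% of exon bases lie under the APC/C subunit gene Cdc23, which had a fitted log2 difference of 0.01 at week 7 and was not called. For Ccna2 the share was 12.5% with Exosc9, and for Prc1 11.1% with Rccd1. Exosc9 and Rccd1 had fitted log2 differences of -0.43 and -1.12 at week 7 and were not called. For Ube2c it was 22.8% with Tnnc2, which had 0 counts, and for Kif4 15.1% with Pdzd11, which had up to 793 counts and was not called. Cdc20 shared 2.8% with Elovl1, which had up to 1929 counts and a log2 difference of 0.08 at week 7 and 0.34 at week 2, not called, and Nusap1 shared 4.2% with Oip5, which had up to 56 counts.

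Beyond the 38, a further list of mitosis genes gave 2 calls higher and 0 lower of 36 tested at week 7. The 5.56% called higher is below the 7.58% of all genes, and the median log2 difference was 0.65. Ckap2 and Ckap2l, spindle-associated proteins, were 4.38-fold (edgeR adjusted p = 0.0179) and 5.05-fold (edgeR adjusted p = 0.0238) higher. A list of Cdk1 brakes and G2 checkpoint genes, which also holds the phosphatases Cdc25a and Cdc25b, gave 1 call higher and 1 lower of 10. These stand beside 7.58% and 6.23% of all genes. Cdkn1a (p21), an inhibitor of cyclin-dependent kinases, measured 1.84 and 2.30 CPM at week 0, 7.45 and 10.0 at week 2, then 4.50 and 5.01 at week 7, and was 2.29-fold higher at week 7 (edgeR adjusted p = 0.0107). Chek1, the DNA damage kinase that restrains entry, measured 2.34 and 2.76 CPM at week 0 and 0.222 and 0.528 at week 7, a 6.80-fold lower level (edgeR adjusted p = 0.00679).

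Of 17 MuvB, B-Myb and E2F genes tested, 1 was called higher (5.88%) and 2 lower (11.8%) at week 7, beside 7.58% and 6.23% of all genes. Lin37, a MuvB subunit, was 1.87-fold lower (edgeR adjusted p = 0.0211), as was E2f1 (edgeR adjusted p = 0.0346), and Rbl2 (p130), the pocket protein of DREAM, was 1.26-fold higher (edgeR adjusted p = 0.0367). Of 15 APC/C genes, 1 was called in each direction (6.67% each), near the shares over all genes. Anapc7 was 1.34-fold higher (edgeR adjusted p = 0.044) and Anapc13 1.30-fold lower (edgeR adjusted p = 0.0237).

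DNA replication genes, which act a phase earlier, gave 1 call higher (4%, beside 7.58% of all genes) and 11 lower (44%, beside 6.23%) of 25 at week 7. Their summed level was 264 ± 7.42 CPM (SD, n = 2) at week 0, 254 ± 1.89 at week 2 and 189 ± 1.85 at week 7, and their median log2 difference at week 7 was -0.62. Mcm6, a subunit of the replicative helicase, measured 14.5 and 13.7 CPM at week 0 and 4.24 and 5.09 at week 7, a 3.03-fold lower level (edgeR adjusted p = 0.000286). Ccne2 (cyclin E2) was 2.92-fold lower (edgeR adjusted p = 0.00328) and Pole, the catalytic subunit of polymerase epsilon, 3.26-fold lower (edgeR adjusted p = 0.004). Rrm2, a subunit of ribonucleotide reductase, was the gene called higher, 1.68-fold (edgeR adjusted p = 0.0308).

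Markers of other cell types were measured in the same libraries, since immune and other non-hepatocyte cells also divide. Of all genes tested, 7.58% were called higher and 6.23% lower at week 7, and 9.81% and 8.81% at week 2. In lists this short, 1 call already exceeds those shares. Hepatocyte markers were present, with 91378 and 90811 summed CPM at week 0, 115341 and 109148 at week 2, then 78352 and 78138 at week 7. Most of these sums was Alb, at 65921 and 65060 CPM at week 0, 98368 and 92607 at week 2, then 54070 and 54418 at week 7. The hepatocyte markers gave 1 call higher and 3 lower of 6 at week 7. At week 2 they gave 1 higher, which was Alb, and 4 lower, and 5 of the 6 had a log2 difference below 0. Kupffer cell markers were 6 of 6 lower at week 7, at 242 and 240 summed CPM beside 339 and 334 at week 0, and 4 of 6 higher at week 2. Monocyte and macrophage markers gave 3 calls higher of 7 at week 2 and 1 lower at week 7. T and NK cell markers gave 0 calls of 7 in both, at 5.91 and 6.49 summed CPM at week 0, 11.2 and 11.0 at week 2, then 4.22 and 6.14 at week 7. B and plasma cell markers summed to 2.08 and 0.954 CPM at week 0 and to 6.84 and 7.33 at week 7, with 1 of 6 called, lower. Endothelial markers gave 3 calls higher of 6 at week 2 and 1 lower at week 7, stellate and fibroblast markers 4 higher and 1 lower of 6 at week 2 and 1 higher and 3 lower at week 7, and cholangiocyte markers 1 higher of 4 at each. Of the erythroid precursor markers, Rhag was at 0 counts in all libraries. Of the 4 tested, 0 were called at week 7 and 1 was called lower at week 2. Those 4 summed to 56.6 and 54.7 CPM at week 0, 30.8 and 35.4 at week 2, then 44.9 and 47.7 at week 7. Of 7 neutrophil and granulocyte precursor markers, 2 passed the filter, and 0 were called at week 7 or week 2. Those 2 summed to 0.962 and 0.415 CPM at week 0, 1.80 and 0.878 at week 2, then 0.945 and 0.645 at week 7. Another marker of that list, Ly6g, was at 0 in all libraries. The part of these cell types in the mitosis gene levels was not tested.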

How the data were processed

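Poly(A) RNA-seq of 6 mouse liver libraries (2 each at weeks 0, 2 and 7) was read from the table of estimated counts per gene deposited by the authors. Per the submitters' processing notes, Bowtie 0.12.2 and build mm8 were used, in roles not given there. No counting program or annotation is given in the sources used here. Counts were rounded, which changed 0 values, and 54409 of 54446 identifiers were given a symbol from GENCODE annotation of GRCm38. Genes were filtered with filterByExpr and scaled by TMM, and tested with edgeR 4.0.16 (R 4.3.3) by the robust quasi-likelihood test in 1 fit of all libraries with 3 residual degrees of freedom, two-sided, Benjamini-Hochberg over 15368 genes, called at 0.05. The biological coefficient of variation was 0.209. The SE of a log2 difference was worked back from the test, as its absolute value over the square root of the F statistic. The 95% intervals used this SE with a t quantile. Both are approximate where a week held counts near 0. Alternatives used DESeq2 1.42.0, limma 3.58.1 voom, other scalings and filters, and each library left out. The test was tried on simulated counts drawn with the spread of the same fit. Such a trial cannot check that spread or whether the libraries are independent. Named genes were all members by role, with values per library for a fixed panel of 10 and any called member, and up to 3 called genes per direction from each other list. The members and lists were chosen with earlier results of these data known.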

Additional observations from a re-analysis of the deposited data

How the results depend on the processing

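Depth limits these values: the 38 genes hold at most 5649 counts in a library, and 2 libraries per week leave 3 residual degrees of freedom. Median-of-ratios scaling and a count minimum of 10 gave 14 genes higher at week 7 than at week 0, as did dividing by 4. There were 16 with DESeq2, 11 with limma voom, 13 from the 4 libraries of these weeks and 13 with a replicate block, and 6 at an adjusted p under 0.01 and 5 when a fold above 1.5 was tested. Leaving out 1 library gave 7 to 13. The count lower, 1, became 0 with 4 libraries, under the stricter threshold or fold, and in every fit that left out a library (0 to 0). For week 2 against week 0 the 8 became 13 by total counts or DESeq2, 12 with no filter or divided by 4, 5 under the fold test, 8 with the replicate block, and 6 to 12 without a library. Between week 7 and week 2 the 0 higher became 2 with voom, 1 with 4 libraries, and 0 to 1 without a library. The count differing over any week, 14, was 6 at the stricter threshold and 8 to 13 without a library. The replicate numbers do not pair the libraries (correlations -0.0019, -0.015 and -0.013). Scaling by total counts moved the median of all genes at week 2 to 0.10 and the split at week 7 against week 2 from 1545 higher and 1495 lower to 1248 and 1784. It also moved the genes called higher at week 2 against week 0, over all genes, from 1508 to 2007. Median-of-ratios scaling called 1166 of all genes higher at week 7 against week 0, beside 1165. For the other tools, filters and left-out libraries the number over all genes is not given here. A change in those member counts may therefore follow a general change in calling.

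Differences near 0 changed sign. With upper-quartile scaling Aurka was -0.017 at week 7 against week 0, and Plk1 -0.0081, Melk -0.00095 and Racgap1 -0.012 at week 7 against week 2. By total counts Ndc80 was 0.019 at week 7 and Ccnb2 0.032 at week 2 against week 0, and Plk1 -0.0066 and Racgap1 -0.0096 at week 7 against week 2. With voom Ttk was -0.19 and Cenpe 0.012, and with the replicate block Ttk was -0.25 and Cenpe 0.045, at week 7 against week 2. Divided by 4, Ndc80 was 0.068 at week 7 against week 0. The cause was not tested. Leaving out each library in turn, other log2 differences crossed 0. For week 7 against week 0 these were Aurka from -0.42 to 0.61, Melk from -0.29 to 1.07, Aurkb from -0.26 to 0.61, Cdca8 from -0.075 to 0.16, Ndc80 from -2.02 to 0.93, Ect2 from -0.44 to 0.66, Cenpa from -0.16 to 0.53, Ttk from -0.87 to 1.49, Nuf2 from -0.59 to 0.91 and Kif23 from -0.17 to 1.10. For week 2 against week 0 these were Foxm1 from -0.029 to 0.85, Aurka from -0.32 to 0.70, Melk from -0.34 to 1.02, Ccnb2 from -0.81 to 0.44, Cdca3 from -0.23 to 0.41, Ttk from -0.095 to 1.35, Cenpa from -0.10 to 0.58 and Top2a from -0.022 to 0.55. For week 7 against week 2 these were Cenpe from -0.29 to 0.33, Nuf2 from -1.30 to 0.21, Hmmr from -0.0024 to 1.65, Melk from -0.47 to 0.44, Birc5 from -0.051 to 0.73, Cenpa from -0.16 to 0.037, Kif2c from -0.36 to 0.99, Racgap1 from -0.10 to 0.17, Cdc25c from -1.01 to 1.69, Plk1 from -0.043 to 0.13, Aurka from -0.38 to 0.14, Ttk from -1.32 to 0.85, Ccna2 from -0.095 to 0.38, Bub1 from -0.25 to 1.55 and Tpx2 from -0.023 to 0.27.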

Other observations

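Among other cell cycle genes, a few chosen after their values were seen differed between the later weeks. E2f8, an atypical E2F linked to polyploid hepatocytes, measured 6.87 and 6.34 CPM at week 0, 10.9 and 10.9 at week 2, then 4.33 and 4.99 at week 7. It was 1.65-fold higher at week 2 than at week 0 (edgeR adjusted p = 0.0167) and 2.33-fold lower at week 7 than at week 2 (edgeR adjusted p = 0.0011). Smc2, a condensin subunit, measured 3.85 and 3.50 CPM at week 0, 6.15 and 6.23 at week 2, then 3.54 and 4.15 at week 7. It was 1.68-fold higher at week 2 than at week 0 (edgeR adjusted p = 0.0328) and 1.61-fold lower at week 7 than at week 2 (edgeR adjusted p = 0.0433). Nek2, a centrosomal kinase, did not share that order: its libraries measured 4.87 and 6.07 CPM at week 0, 4.52 and 3.44 at week 2, then 7.50 and 6.40 at week 7, and it was 1.75-fold higher at week 7 than at week 2 (edgeR adjusted p = 0.0354).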
